A study of Mus musculus with 14 samples.

Results

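Basal epithelial cells hold on to the basement membrane through 9 genes described here: the integrin chains Itga6, Itgb4 and Itga3, the transmembrane collagen gene Col17a1, the plakin gene Dst, the laminin chains Lama3, Lamb3 and Lama5, and the anchoring fibril collagen gene Col7a1. They were looked up by symbol among the 20308 gene symbols of the deposited table. All 9 were found, and all 9 passed the filter on low counts that left 13011 genes for testing. RNA came from the urothelium, the lining epithelium of the bladder, at embryonic day 15.5, and the mice were of C57BL/6; 129S4 background. The Cre-negative group (n = 7) held littermates without Cre, whose Dnmt1 alleles are not given in the sources used here. The Control group (n = 2) was Shhcre/+; Dnmt1flox/+, with 1 floxed Dnmt1 allele. The Dnmt1cKO group (n = 5) was Shhcre/+; Dnmt1flox/flox. Control and Dnmt1cKO embryos thus shared the Shhcre allele, which expresses Cre recombinase where Shh is active, and the labels describe Dnmt1cKO as a knockout in the urothelium. Trypsin was used to part the epithelium from the stroma, and each library came from 1 lysate into which tissue of several embryos had gone, so an n counts pooled lysates and not embryos.

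Hemidesmosomes are adhesion complexes on the basal face of stratified epithelia. Inside the cell, plectin and dystonin tie keratin filaments to the integrin made of the Itga6 and Itgb4 chains and to collagen XVII. Outside, this integrin binds a laminin trimer that holds the Lama3 and Lamb3 chains, and anchoring fibrils of collagen VII fasten that layer to the connective tissue beneath. The Itga3 chain pairs with Itgb1 in another laminin receptor, and Lama5 is the alpha chain of the laminins found in most epithelial basement membranes. Dnmt1 is the enzyme that copies CpG methylation onto newly made DNA. Methylation itself was not measured in these libraries.

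The DNA just upstream of the genes' starts is shown first, because CG pairs are the sites at which Dnmt1 acts. RefSeq windows on build GRCm38.p6 (the mm10 genome), each of the 250 bases before an annotated start, were matched by symbol to 6 of the 9 genes and gave 9 windows. The 4 windows below are those of the integrin and laminin chains most alike in their levels over the libraries (Itga3 and Lama5) and those with the fewest CG pairs (Lamb3 and Col17a1). Each is written 5′ to 3′ on the gene's strand, with CG pairs in capitals.
Itga3, chr11:95076715-95076964, minus strand: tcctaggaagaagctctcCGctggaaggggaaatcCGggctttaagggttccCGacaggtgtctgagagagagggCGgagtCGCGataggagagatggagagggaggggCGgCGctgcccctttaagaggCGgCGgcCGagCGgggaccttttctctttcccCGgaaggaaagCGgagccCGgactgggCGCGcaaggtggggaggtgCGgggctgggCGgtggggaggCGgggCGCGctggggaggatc
Lama5, chr2:180225860-180226109, minus strand: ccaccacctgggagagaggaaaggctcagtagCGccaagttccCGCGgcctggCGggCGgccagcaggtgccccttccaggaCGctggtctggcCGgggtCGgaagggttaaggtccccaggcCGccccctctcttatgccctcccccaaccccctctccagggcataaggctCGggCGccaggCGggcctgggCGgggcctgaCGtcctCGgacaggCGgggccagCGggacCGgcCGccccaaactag
Lamb3, chr1:193301744-193301993, plus strand: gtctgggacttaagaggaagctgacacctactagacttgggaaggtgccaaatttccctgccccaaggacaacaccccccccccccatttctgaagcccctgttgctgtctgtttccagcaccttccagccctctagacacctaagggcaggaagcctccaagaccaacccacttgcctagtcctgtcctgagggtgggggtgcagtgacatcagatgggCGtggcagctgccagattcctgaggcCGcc
Col17a1, chr19:47692043-47692292, minus strand: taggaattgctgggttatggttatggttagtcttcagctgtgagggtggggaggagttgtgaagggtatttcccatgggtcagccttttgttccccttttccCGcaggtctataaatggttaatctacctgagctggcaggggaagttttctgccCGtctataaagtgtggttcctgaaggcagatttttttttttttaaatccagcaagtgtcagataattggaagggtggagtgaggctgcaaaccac
The Itga3 window held 22 CG pairs and the Lama5 window 19, against a median of 6 over all 32851 windows of this length. At least 22 pairs were found in 14.8% of those windows and at least 19 in 19.7%. The Lamb3 and Col17a1 windows each held 2, and 29.0% of all windows held 2 or fewer. Further windows lay upstream of other annotated starts, with 22 and 5 pairs at 2 starts of Dst, 7 at Col7a1, 5 at the second Itga3 start and 3 at the second Lamb3 start. The letters TATAAA, read on both strands, stood in 12.4% of all windows and in 1 of the 9, that of Col17a1, where they occur 2 times. The palindromic motif TGANTCA stood in 6.75% of all windows and in 0 of the 9.

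The libraries held between 2520509 and 13131921 expected counts, with 9397 to 13729 genes at a count above 0. Levels are given in CPM, counts per 1000000 of the library's TMM-scaled total, as mean ± SD where a mean is given. Dnmt1 averaged 119 ± 58.4 CPM in Cre-negative (n = 7), 102 ± 6.20 CPM in Control (n = 2) and 48.0 ± 44.2 CPM in Dnmt1cKO (n = 5). Its log2 fold change in Dnmt1cKO against Cre-negative, -1.31 ± 0.51 (SE), did not pass edgeR's quasi-likelihood test (Benjamini-Hochberg adjusted p = 0.249), and the library labelled Dnmt1cKO 3 had 123 CPM. Without that library the value was -1.998 (edgeR adjusted p = 0.0531), and it passed the test with the stromal mean (adjusted p = 0.0213) or the pan-epithelial mean (0.0439) as a covariate. Shh had a Cre-negative mean of 267 ± 72.4 CPM, a Control mean of 109 ± 66.4 CPM and a Dnmt1cKO mean of 43.6 ± 38.1 CPM, and it fell in Dnmt1cKO against Cre-negative (log2 fold change -2.60 ± 0.52, edgeR adjusted p = 0.00726). Its value was -1.29 ± 0.70 in Control against Cre-negative and -1.31 ± 0.64 in Dnmt1cKO against Control (edgeR adjusted p = 0.723), and neither passed the test. Dnmt1cKO and Cre-negative differ in the Shhcre allele as well as in the Dnmt1 knockout. That comparison cannot tell their effects apart, for Shh itself as for any other gene. The 7 uroplakin and differentiated urothelial markers were at a count above 0 in every group. In Dnmt1cKO against Cre-negative 0 of them passed edgeR's test, with 2 at an unadjusted p under 0.05. Only 1 of the 7 had a log2 fold change above 0, with a median of -0.53, where 47.9% of all genes tested were above 0. The summed level of the 18 stroma and smooth muscle markers was 172 to 3250 CPM in Cre-negative, 3414 and 12785 CPM in Control, and 261 to 12124 CPM in Dnmt1cKO. Only Thy1 of the 18 was at 0 throughout a group, in Cre-negative. The summed level of the 12 pan-epithelial markers was 9933 to 17121, 6643 to 10807 and 4806 to 14648 CPM in the same groups. Dnmt1cKO 3 had the lowest epithelial sum of the Dnmt1cKO libraries, 4806 CPM, and the highest stromal one. Bulk levels do not separate fewer cells of a type from less RNA per cell, which cannot be told apart for any gene below.

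None of the 9 genes passed the test in any of the 3 comparisons that the genotypes allow. In Dnmt1cKO against Cre-negative, 0 of 9 were called by edgeR (adjusted p under 0.05), where 1.10% of all genes tested were called, 119 of them higher and 24 lower. Over all genes DESeq2 called 332 higher and 233 lower, and limma-voom 162 higher and 292 lower. In Dnmt1cKO against Control 0 of 9 were called and 0.177% of all genes, and in Control against Cre-negative 0 of 9 and 0.0538%. At an unadjusted p under 0.05 the count was again 0 of 9 in each comparison, where 13.7%, 6.94% and 3.67% of all genes passed. DESeq2 also called 0 of 9 in each (4.77%, 0.971% and 0.253% of all genes), and so did limma-voom (3.49%, 1.78% and 0.307%). The groups overlapped for all 9 genes in every comparison, while 1.86%, 12.3% and 7.94% of all genes had groups that did not overlap. The log2 fold change was above 0 for 8 of 9 genes in Dnmt1cKO against Cre-negative, with a median of 0.44, where 47.9% of all genes were above 0 and their median was -0.035. DESeq2 also had 8 of 9 above 0, but limma-voom had 4 of 9 with a median of -0.057, where 37.2% of all genes were above 0 and their median was -0.34. In Dnmt1cKO against Control the edgeR value was above 0 for 7 of 9 (median 0.67), and for 49.4% of all genes (median -0.0033). In Control against Cre-negative it was above 0 for 3 of 9 (median -0.33), and for 46.4% of all genes (median -0.044). With limma-voom the first of these counts was 5 of 9 (median 0.070), where 27.8% of all genes were above 0 (median -0.78). The second was 4 of 9 (median -0.012), where 59.9% were (median 0.15). These comparisons share libraries, so their counts are not independent of each other.

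**Figure D1:**
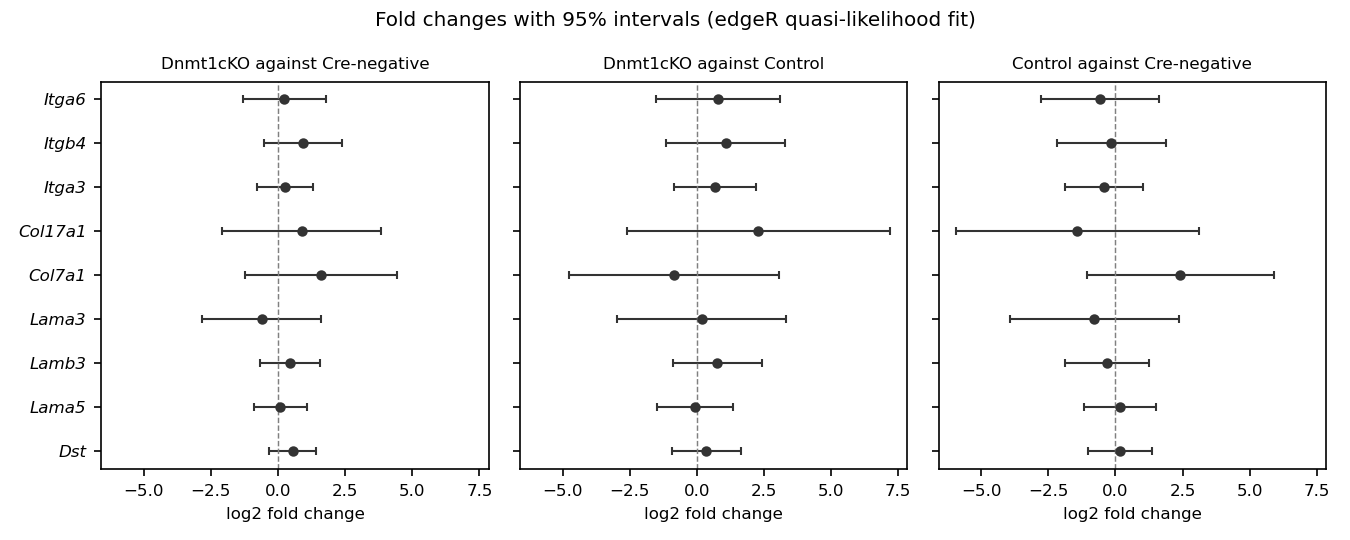
Log2 fold change of each gene with its 95% interval from the edgeR fit, in the 3 comparisons. Every interval spans 0, and those of Col17a1, Col7a1 and Lama3 are the widest, as in Dnmt1cKO against Cre-negative, where the Col17a1 interval runs from -2.10 to 3.84.

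Itga6, the integrin alpha chain of the hemidesmosome (chr2:71745616-71858416, plus strand), had 2.39 CPM in its lowest Cre-negative library, a median of 125 and a highest value of 169. The 2 Control libraries had 93.1 and 34.2 CPM. The 5 Dnmt1cKO libraries, in the order of their replicate numbers here and below, had 36.8, 192, 1.20, 111 and 212 CPM. The gene was therefore abundant in most libraries of each group and close to absent in Cre-negative 2, with 7 counts, and in Dnmt1cKO 3, with 5 counts. The log2 fold change in Dnmt1cKO against Cre-negative was 0.23 ± 0.75 (SE, 95% interval -1.30 to 1.77) and did not pass edgeR's test (adjusted p = 0.957). Without Dnmt1cKO 2 it was -0.064, without Dnmt1cKO 5 it was -0.14 and without Dnmt1cKO 3 it was 0.59. A stretch of 326 bases in an Itga6 transcript matches Gm29397 at 100% identity. Gm29397 is not among the deposited gene symbols, so its reads may have been counted under Itga6.

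Itgb4, the beta chain that pairs with Itga6 and carries the long cytoplasmic tail of the complex (chr11:115974709-116008412, plus strand), ranged in Cre-negative from 0.519 through a median of 32.3 to 67.5 CPM. It had 35.4 and 27.7 CPM in Control. It had 44.2, 67.9, 14.0, 54.6 and 152 CPM in Dnmt1cKO. The lowest Cre-negative value, of 3 counts, belonged to Cre-negative 3, a library in which Itga6 stood at 33.9 CPM. Dnmt1cKO 5 lay above all 7 Cre-negative libraries and Dnmt1cKO 2 just above the highest of them, and Dnmt1cKO 1, 3 and 4 lay within their range. Against Cre-negative its log2 fold change was 0.91 ± 0.70 (95% interval -0.54 to 2.37), which edgeR's test did not separate from 0 (adjusted p = 0.66). In Dnmt1cKO against Control it was 1.07 ± 1.08 (edgeR adjusted p = 1). Without Dnmt1cKO 5 the first of these was 0.36 and the second 0.52. B230344G16Rik overlaps exons of Itgb4 on the other strand, with a longest shared stretch of 131 bases. The use of strand in counting is not given in the sources used here, so reads of the shared bases cannot be told apart.

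The log2 ratio of Itga6 to Itgb4 sets the paired chains against each other within a library, on log2(CPM + 0.5). Its Cre-negative mean was 1.31 ± 2.33, its Control mean 0.84 ± 0.76 and its Dnmt1cKO mean -0.071 ± 1.81. Cre-negative libraries ran from -2.76 in Cre-negative 2 to 5.08 in Cre-negative 3, the widest span of the 3 groups, and the lowest of the 14 was -3.09, in Dnmt1cKO 3. The difference of -1.38 between Dnmt1cKO and Cre-negative had p = 0.284 in a two-sided exact permutation test over libraries. It was -2.06 without Cre-negative 2, -0.75 without Cre-negative 3 and -0.63 without Dnmt1cKO 3.

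Itga3, which forms a laminin receptor with Itgb1 (chr11:95044474-95076801, minus strand), ran from 37.2 through a median of 84.4 to 141 CPM in Cre-negative. Control libraries had 80.6 and 43.7 CPM. Dnmt1cKO libraries had 99.6, 108, 115, 7.01 and 167 CPM. Dnmt1cKO 4 thus stood below every other library of the study, and the other 4 Dnmt1cKO libraries lay in the upper part of the Cre-negative range or, for Dnmt1cKO 5, above it. Against Cre-negative, Itga3 had a log2 fold change of 0.26 ± 0.50 (95% interval -0.77 to 1.28; edgeR adjusted p = 0.909), which was -0.012 without Dnmt1cKO 5 and 0.56 without Dnmt1cKO 4. In Dnmt1cKO 3, where Itga6 was at 1.20 CPM, Itga3 was at 115, and the Itga3 to Itga6 log2 ratio there was 6.08. In Dnmt1cKO 4 the same ratio was -3.89, the lowest of the 14 libraries. Cre-negative had a mean ratio of 0.45 ± 1.60, Control one of 0.073 ± 0.39 and Dnmt1cKO one of 0.49 ± 3.67, and the difference of 0.039 between the first and the last had an exact permutation p of 0.989.

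**Figure D2:**
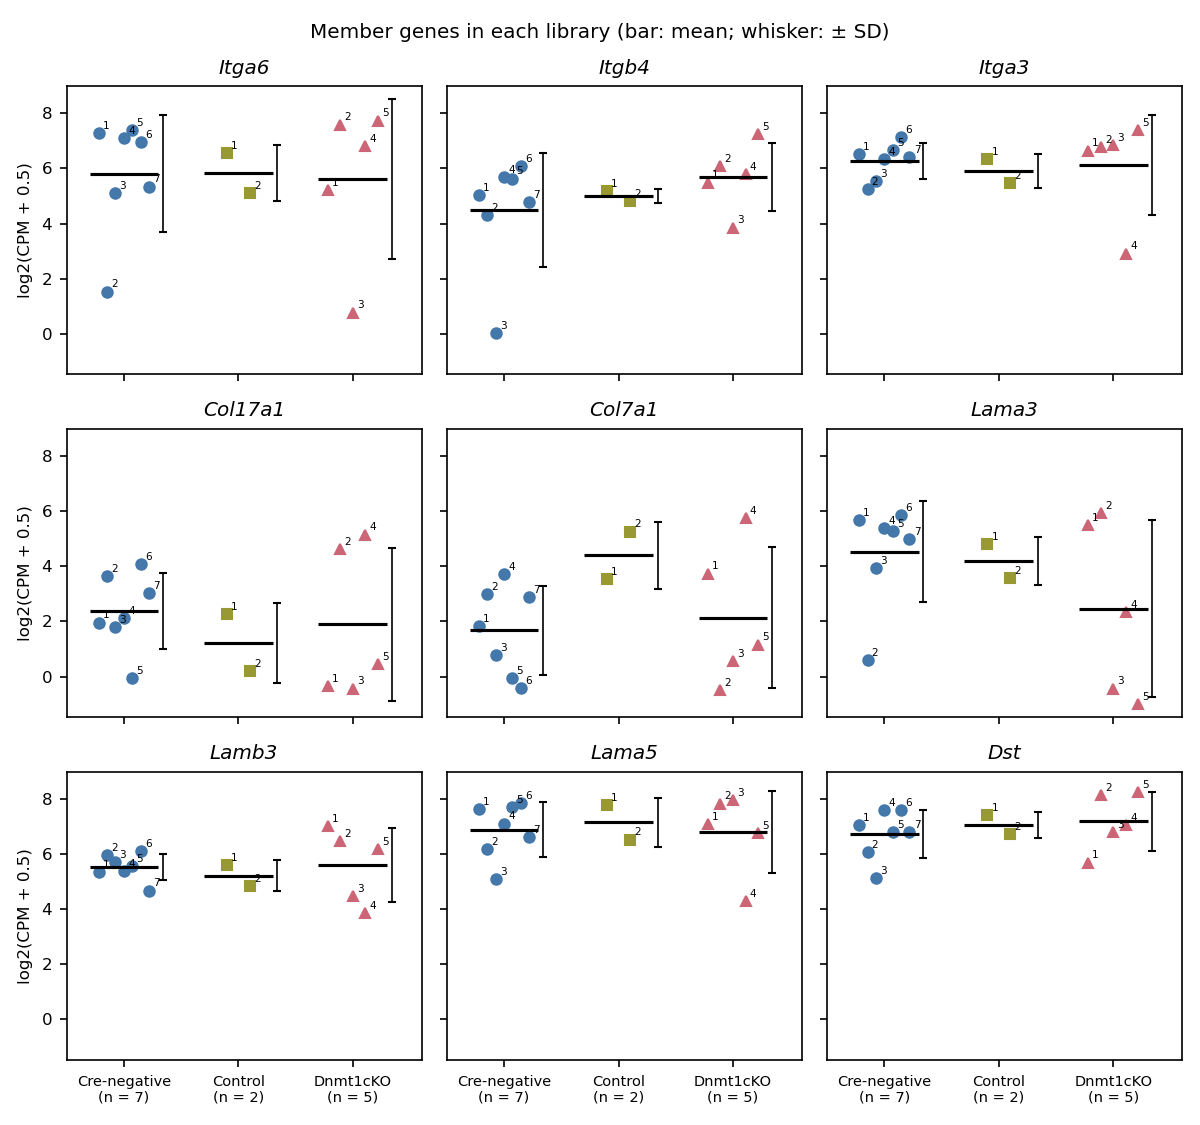
Level of each of the 9 genes as log2(CPM + 0.5) in each library, numbered by replicate, with the mean and SD of each group. The groups overlap in every panel, and single libraries lie far below the rest for Itga6 (Cre-negative 2, Dnmt1cKO 3), Itgb4 (Cre-negative 3), Itga3 (Dnmt1cKO 4) and Lama3 (Cre-negative 2, Dnmt1cKO 3 and, lowest, Dnmt1cKO 5).

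Col17a1, the transmembrane collagen of the hemidesmosome (chr19:47646344-47692094, minus strand), was low in most libraries. Cre-negative values ran from 0.458 through a median of 3.87 to 16.3 CPM, and Control values were 4.28 and 0.648 CPM. Dnmt1cKO libraries had 0.285, 24.3, 0.241, 35.0 and 0.870 CPM. They split into Dnmt1cKO 2 and 4, which had 233 and 145 counts and lay above all other libraries, and Dnmt1cKO 1, 3 and 5, which had 1, 1 and 2 counts. The log2 fold change against Cre-negative was 0.87 ± 1.44 (95% interval -2.10 to 3.84; edgeR adjusted p = 0.886) and became -0.037 without Dnmt1cKO 4. Against Control it was 2.29 ± 2.38 (95% interval -2.61 to 7.19; edgeR adjusted p = 1). Its log2 ratio to Itgb4 had a mean of -2.14 ± 2.35 in Cre-negative and of -3.80 ± 2.68 in Dnmt1cKO, a difference of -1.66 with an exact permutation p of 0.274. Without Dnmt1cKO 5 that difference was -0.91 and without Cre-negative 3 it was -1.01.

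Dst, the gene of dystonin, whose epithelial form is the inner plaque protein that binds keratin (chr1:33908225-34308661, plus strand), was at 34.7 to 193 CPM in Cre-negative, with a median of 110.0 CPM. It had 168 and 104 CPM in Control. In Dnmt1cKO it had 51.1, 280.3, 109.7, 131 and 303 CPM. Dnmt1cKO 2 and 5 exceeded all other libraries, and Dnmt1cKO 1 lay near the bottom of the Cre-negative range. The Dst fold change against Cre-negative, on the log2 scale, was 0.55 ± 0.42 (95% interval -0.33 to 1.42), the smallest standard error among the 9, and did not pass edgeR's test (adjusted p = 0.663). It was 0.26 without Dnmt1cKO 5 and 0.31 without Dnmt1cKO 2. The annotation lists 14 coding transcripts of Dst, made in epithelium, muscle and nerve, and the table gives them as 1 value. A stretch of 573 bases in a Dst transcript matches the gene Gfer at 99.8% identity, so reads of that stretch may have been assigned either way. On the other strand, 2 annotated genes overlap exons of Dst. Neither is among the deposited gene symbols, so reads of the overlap may have been counted under Dst. The Dst to Itgb4 log2 ratio had a Cre-negative mean of 2.21 ± 1.32, a Control mean of 2.06 ± 0.23 and a Dnmt1cKO mean of 1.48 ± 1.04. Its difference between Dnmt1cKO and Cre-negative, -0.73, had an exact permutation p of 0.38, and was -0.24 without Cre-negative 3 and -0.41 without Dnmt1cKO 1.

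Lama3, the alpha chain of the hemidesmosomal laminin (chr18:12333819-12583013, plus strand), had the widest spread of the 9 within Dnmt1cKO, with an SD of 3.22 in log2(CPM + 0.5). In Cre-negative it ran from 1.02 through a median of 38.6 to 57.3 CPM, and in Control it had 27.6 and 11.3 CPM. In Dnmt1cKO it had 44.2, 60.8, 0.241, 4.59 and 0 CPM. Dnmt1cKO 1 lay among the upper Cre-negative libraries and Dnmt1cKO 2 just above them, while Dnmt1cKO 3, 4 and 5 held 1, 19 and 0 counts. The 0 in Dnmt1cKO 5, the shallowest library, allows a level of up to 1.30 CPM (3 counts, counting error only). The low values were not confined to the knockout, since Cre-negative 2 had 3 counts. The log2 fold change against Cre-negative was -0.61 ± 1.08 (95% interval -2.83 to 1.61; edgeR adjusted p = 0.901). The size of this value moved with the method, to -2.88 in limma-voom (adjusted p = 0.256), the smallest adjusted p of any of the 9 genes under any alternative. With 1 library left out the edgeR value ran from -1.45 without Dnmt1cKO 2 to -0.27 without Dnmt1cKO 3, and without the 3 libraries of the highest stromal mean (Dnmt1cKO 3, Control 2 and Dnmt1cKO 4) it was 0.10. Gm29200 overlaps exons of Lama3 on the other strand, with a longest shared stretch of 198 bases and the same limit as for Itgb4.

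Lamb3, the beta chain of the same laminin (chr1:193207699-193343878, plus strand), was even in Cre-negative, from 24.9 through a median of 46.8 to 68.2 CPM. Control libraries had 48.2 and 27.8 CPM. Dnmt1cKO libraries had 128, 88.9, 21.9, 14.0 and 71.8 CPM. In Dnmt1cKO the values thus spread to both sides of the Cre-negative range, with Dnmt1cKO 1, 2 and 5 above it and Dnmt1cKO 3 and 4 below it. Its log2 fold change against Cre-negative was 0.44 ± 0.54 (95% interval -0.67 to 1.55; edgeR adjusted p = 0.825), and it ran from 0.042 without Dnmt1cKO 1 to 0.70 without Dnmt1cKO 4.

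The ratio of the paired laminin chains held the smallest p of the 21 tests made on 7 ratios in 3 comparisons. In Cre-negative the log2 ratio of Lama3 to Lamb3 lay between -0.28 and 0.34 in 5 of 7 libraries and at -1.75 and -5.36 in Cre-negative 3 and 2. In Dnmt1cKO it was -1.52, -0.54, -4.92, -1.51 and -7.18. The Cre-negative mean was -0.997 ± 2.05, the Control mean -1.03 ± 0.33 and the Dnmt1cKO mean -3.13 ± 2.80. The difference of -2.14 between Dnmt1cKO and Cre-negative had a two-sided exact permutation p of 0.155, and 0.972 after adjustment over the 21 tests. It kept its sign when any 1 library was left out, between -2.86 and -1.13, the latter without Dnmt1cKO 5. With 2 Control libraries, such a test cannot give a p under 0.0476 against Dnmt1cKO or under 0.0278 against Cre-negative.

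Lama5, the alpha chain of the broadly used epithelial laminins (chr2:180176373-180225859, minus strand), ran from 33.5 through a median of 137 to 231 CPM in Cre-negative. It had 220.0 and 91.5 CPM in Control. Dnmt1cKO libraries had 134, 226, 250.1, 19.1 and 109 CPM. Dnmt1cKO 4 had the lowest value of the study for Lama5 as it did for Itga3, and the other 4 lay inside the Cre-negative range or, for Dnmt1cKO 3, just above it. Its log2 fold change against Cre-negative was 0.087 ± 0.48 (95% interval -0.91 to 1.08; edgeR adjusted p = 0.982), and -0.16 without Dnmt1cKO 3. On the linear scale this interval runs from 0.532-fold to 2.12-fold. The log2 ratio of Lama5 to Lama3 had a Cre-negative mean of 2.34 ± 1.47, a Control mean of 2.97 ± 0.011 and a Dnmt1cKO mean of 4.32 ± 3.45, with 8.40 in Dnmt1cKO 3 and 7.77 in Dnmt1cKO 5. Its difference of 1.97 between Dnmt1cKO and Cre-negative had an exact permutation p of 0.261, and was 0.95 without Dnmt1cKO 3 and 1.11 without Dnmt1cKO 5.

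Col7a1, which forms the anchoring fibrils (chr9:108953586-108984875, plus strand), was the lowest of the 9 per length in Cre-negative, at 0.255 to 12.6 CPM with a median of 3.03 CPM. Both Control libraries were higher than most, with 11.1 and 37.9 CPM. Dnmt1cKO libraries had 12.8, 0.208, 0.962, 52.9 and 1.74 CPM. The 2 highest values of the study were those of Dnmt1cKO 4 and Control 2, and the remaining Dnmt1cKO libraries lay between 0.208 and 12.8 CPM. The log2 fold change in Control against Cre-negative was 2.42 ± 1.69 (95% interval -1.06 to 5.90; edgeR adjusted p = 1), and 1.28 without Control 2. In Dnmt1cKO against Cre-negative it was 1.59 ± 1.37 (95% interval -1.24 to 4.42; edgeR adjusted p = 0.709), and -0.21 without Dnmt1cKO 4. Against Control it was -0.83 ± 1.90 (95% interval -4.74 to 3.08; edgeR adjusted p = 1), and 0.30 without Control 2. Stromal marker sums were 12785 CPM in Control 2, 7360 CPM in Dnmt1cKO 4 and 12124 CPM in Dnmt1cKO 3, which had 4 Col7a1 counts. The source of the high Col7a1 values was not tested. With the stromal mean as a covariate, the log2 fold change in Control against Cre-negative was 1.72 (edgeR adjusted p = 1).

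**Figure D3:**
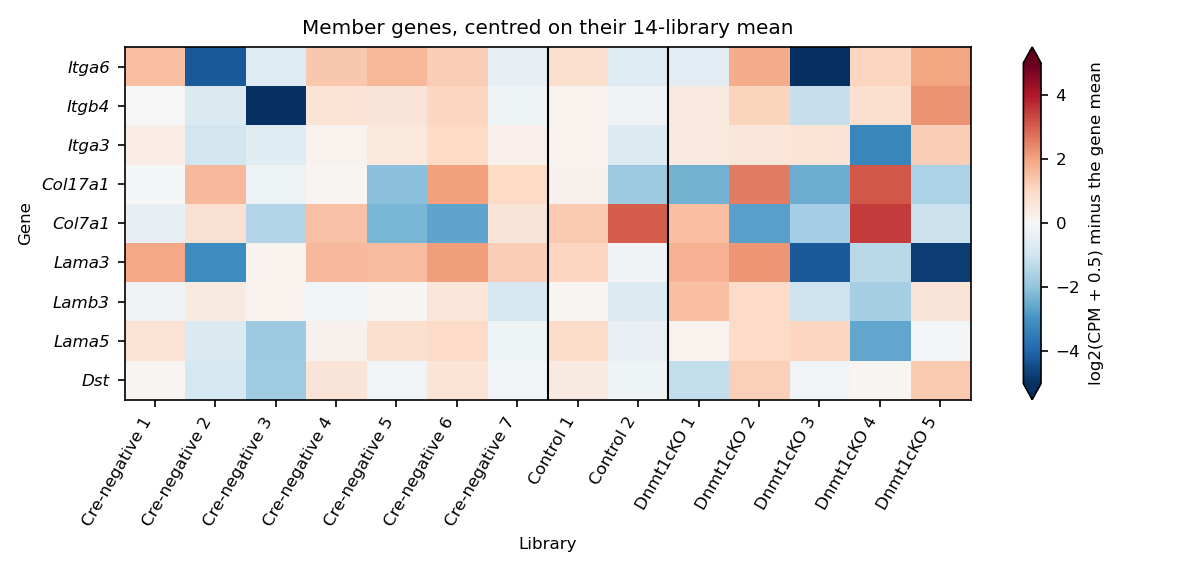
Each gene's log2(CPM + 0.5) minus its mean over the 14 libraries, with colours ending at -5 and 5. Rows differ in which libraries are low: Itga6 and Lama3 in Cre-negative 2 and Dnmt1cKO 3, Lama3 also in Dnmt1cKO 5, where it is lowest, Itgb4 in Cre-negative 3, and Itga3 and Lama5 in Dnmt1cKO 4, while Col7a1 is at its highest there.

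The 9 genes differed among themselves in how evenly they were measured within the group that has the most libraries. The SD of log2(CPM + 0.5) over the 7 Cre-negative libraries was 2.11 for Itga6, 2.07 for Itgb4 and 1.84 for Lama3. Among the 7266 genes with a mean of at least 20 CPM, whose median SD was 0.611, these values exceeded 95.1%, 94.7% and 92.7%. Lamb3 had an SD of 0.473, larger than 31.6% of those genes, and Itga3, Dst and Lama5 had 0.661, 0.872 and 0.999. Col17a1 and Col7a1 had means under 20 CPM and SDs of 1.38 and 1.61. The profile of a gene over the 14 libraries was compared with that of another by the mean absolute difference of their centred log2 values. The closest pair was Itga3 and Lama5, at 0.479, followed by Itgb4 and Dst, at 0.678. The chains of 1 integrin, Itga6 and Itgb4, were at 1.32, and the laminin chains Lama3 and Lamb3 were at 1.74. Col7a1 and Lama3 were farthest apart, at 2.64. The points of these profiles share their libraries and depths, so the values are a description. The centred values were not scaled, so this distance also grows with the spread of each gene, which was wide for Lama3 and Col7a1. It does not by itself show whether paired chains vary together.

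By the same measure, the genes nearest to the mean profile of the 9 were sought among 10509 others, whose median distance was 1.14. Among the 5 nearest were Slmap at 0.261, Rlim at 0.262, Fras1 at 0.273 and D15Ertd621e at 0.280. The nearest of the 9 to their own mean were Dst, at 0.442, and Lama5, at 0.614, and the farthest was Col7a1, at 1.68. The mean profile itself was lowest in Dnmt1cKO 3 (-1.54), Cre-negative 3 (-1.24) and Cre-negative 2 (-0.86) and highest in Dnmt1cKO 2 (0.97).

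Levels of different genes were compared per kilobase of annotated exon (GENCODE M21). In Cre-negative the order of means was Itga3 at 14.6 ± 6.11 CPM per kb, Lama5 at 12.2 ± 6.58, Itga6 at 10.4 ± 7.40, Lamb3 at 7.23 ± 2.19, Itgb4 at 5.02 ± 3.20, Lama3 at 3.12 ± 1.85, Dst at 2.91 ± 1.44, Col17a1 at 1.11 ± 0.943 and Col7a1 at 0.443 ± 0.447. The means of neighbours in this order differed by less than the larger of their SDs, with the exception of Dst and Col17a1, whose ranges over libraries still overlapped. With the length of the longest coding transcript in place of all exons, Itga6 came first, at 21.8 CPM per kb, and Dst stood above Lama3, at 5.14 against 3.18. In Control Lama5 led, at 13.7 ± 7.98 CPM per kb, and Col17a1 was last, at 0.410 ± 0.428. In Dnmt1cKO Itga3 led, at 17.4 ± 10.2, and Col7a1 was last, at 1.34 ± 2.19. The partner chains Itgb1, at 168 ± 26.5 CPM per kb, and Lamb1, at 36.0 ± 5.60, had higher means per length than any of the 9 in Cre-negative. Plec, the plectin gene, was at 9.88 ± 6.24 CPM per kb and Cd151, a tetraspanin that binds laminin-binding integrins, at 17.2 ± 6.55.

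**Figure D4:**
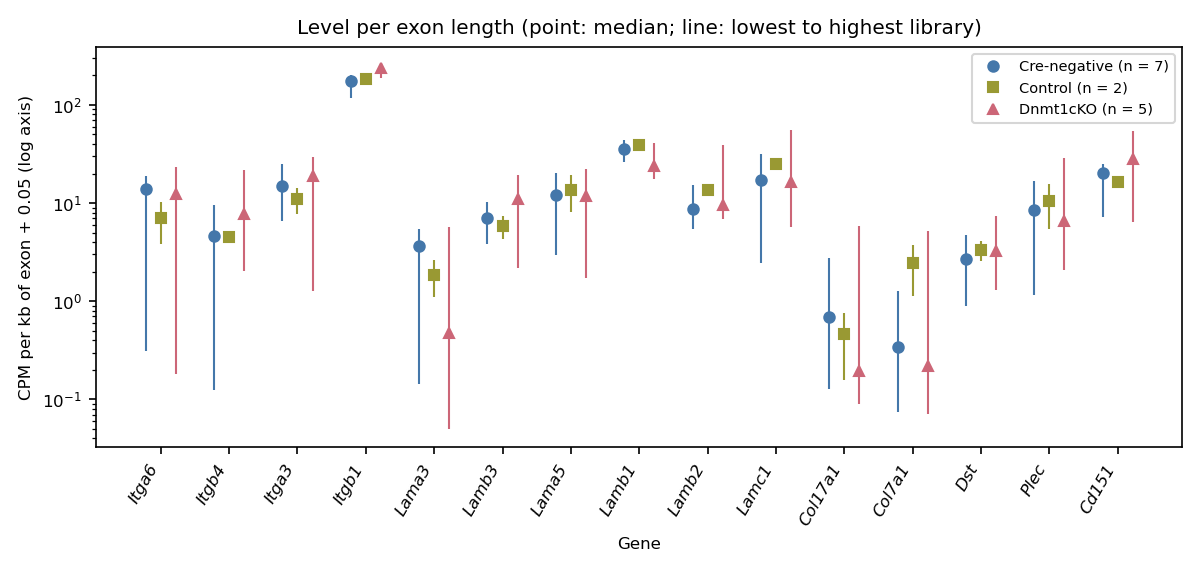
CPM per kilobase of exon for the 9 genes and 6 partner genes in each group, on a log axis (0.05 added), with points at the median and lines from the lowest to the highest library. Itgb1 is highest in every group, and the lines of Col17a1 and Col7a1 reach the lowest levels along with the low libraries of Itga6, Itgb4 and Lama3.

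Since the share of epithelial RNA differed between lysates, each gene was also set against the mean log2(CPM + 0.5) of the 12 pan-epithelial markers of its own library. The Itgb4 level minus that mean was -4.20 ± 2.16 in Cre-negative and -2.34 ± 1.05 in Dnmt1cKO, in log2 units. The difference of 1.86 had a two-sided exact permutation p of 0.0821, the smallest of 27 such tests, and 0.827 after adjustment over them. Without Cre-negative 3, whose Itgb4 count was 3, the difference was 1.11 (adjusted p = 1). Lamb3 differed by 0.74 (p = 0.11) and Dst by 1.13 (p = 0.122) in the same exact test, with Dnmt1cKO the higher in both, and the adjusted p was 0.827 for each. The pan-epithelial mean was itself lower in Dnmt1cKO, at 8.03 ± 0.65 against 8.70 ± 0.25 in Cre-negative. A gene at the same level in both groups would therefore be higher in Dnmt1cKO on this scale. Lama3 was the only gene of the 9 with a lower mean in Dnmt1cKO on it, by a difference of -1.40 (exact permutation p = 0.321). That difference was -0.54 without Dnmt1cKO 5, -0.90 without Dnmt1cKO 3, -2.11 without Cre-negative 2 and -2.14 without Dnmt1cKO 2. Col7a1 in Control against Cre-negative differed by 3.07 (exact permutation p = 0.0833, adjusted 0.827).

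Genes around the 9 were counted by lists in Dnmt1cKO against Cre-negative, with the same adjusted p over all 13011 genes. Of 12 other hemidesmosome and anchoring genes, 0 rose and 0 fell, with 9 log2 fold changes above 0 and a median of 0.39. At an unadjusted p under 0.05 edgeR passed 3 of the 12, and DESeq2 and limma-voom called 0. Krt5, the basal keratin that hemidesmosomes anchor, had a Cre-negative mean of 159 ± 55.8 CPM and a Dnmt1cKO mean of 281 ± 76.7 CPM, a log2 fold change of 0.82 ± 0.29 (edgeR adjusted p = 0.184). Krt14, its usual partner keratin, had 24.9 to 33.5 CPM in 4 of 5 Dnmt1cKO libraries and 0.241 CPM in Dnmt1cKO 3, against 0 to 7.90 CPM in Cre-negative. Its log2 fold change was 2.91 ± 1.34 (edgeR adjusted p = 0.33). The 5 basal urothelial markers, Krt5 among them, went both ways, with log2 fold changes from -1.08 to 6.96, a median of 0.82 and 3 above 0. Of the 5, edgeR called 0 (3 at an unadjusted p under 0.05), DESeq2 called 1 and limma-voom 1. Itgb1 had means of 684 CPM (Cre-negative) and 927 CPM (Dnmt1cKO), 0.44 ± 0.21 on the log2 scale (edgeR adjusted p = 0.341).

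Of 8 other laminin chains 7 were tested, and 0 rose and 0 fell in edgeR, with 1 at an unadjusted p under 0.05 and 0 called by DESeq2 or limma-voom. Lama4, an alpha chain of vascular and stromal basement membranes, had means of 4.84 CPM (Cre-negative) and 45.2 CPM (Dnmt1cKO; log2 fold change 3.21 ± 1.22, edgeR adjusted p = 0.233). Its highest libraries were Dnmt1cKO 3 and 4, at 105 and 89.4 CPM, and the stromal marker sums of these libraries were 12124 and 7360 CPM. The source of the high Lama4 values was not tested. Lamb1 averaged 357 and 251 CPM, -0.51 ± 0.26 on the log2 scale (edgeR adjusted p = 0.394). Lamb2 averaged 57.2 and 104 CPM, 0.87 ± 0.44 on the log2 scale (edgeR adjusted p = 0.4).

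Of 20 genes for collagen IV, nidogens and other basement membrane components, 1 rose and 0 fell, and the median log2 fold change was 0.031. The gene that rose was Sparc, a secreted collagen-binding protein. It had 19.5 to 109 CPM in Cre-negative with a median of 59.4 CPM, 212 and 718 CPM in Control, and 99.6, 85.2, 664, 391 and 107 CPM in Dnmt1cKO. Its log2 fold change was 2.03 ± 0.48 (edgeR adjusted p = 0.033). The 3 highest Sparc libraries, Control 2, Dnmt1cKO 3 and Dnmt1cKO 4, were the 3 with the highest stromal means. Without them, an alternative added after the data had been seen, the value was 0.58. Leaving out the Dnmt1cKO libraries with the most Sparc lowers this value whatever the reason, and the cause of the rise was not tested. In limma-voom the adjusted p of Sparc was 0.147. The edgeR adjusted p was also above 0.05, at 0.0577 to 0.166, when any 1 of Cre-negative 1, 3, 5, 6 and 7 or Dnmt1cKO 3 and 4 was left out. The collagen IV chain Col4a1 had means of 54.0 CPM (Cre-negative) and 222 CPM (Dnmt1cKO; 2.04 ± 0.62 on the log2 scale, edgeR adjusted p = 0.119), and Col4a2 averaged 21.6 and 116 CPM (2.42 ± 0.78, adjusted p = 0.136). DESeq2 called both collagen IV chains (adjusted p = 0.032 and 0.0454), and with the stromal mean as a covariate the Col4a2 value was -0.47.

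Among 12 other tested integrin chains, 13 focal adhesion and laminin receptor genes and 13 tested extracellular proteases and inhibitors, 0 rose and 0 fell in edgeR. At an unadjusted p under 0.05 the counts were 2, 0 and 3, and DESeq2 called 0, 0 and 2 and limma-voom 0 of each. Median log2 fold changes of these lists were 0.82, -0.23 and 0.69, where that of all genes was -0.035. Of 12 pan-epithelial markers 0 passed edgeR's test (3 at an unadjusted p under 0.05, 0 by DESeq2 and 1 by limma-voom), and 11 had a log2 fold change below 0, with a median of -0.47. Of 17 tested stroma and smooth muscle markers 2 rose, the smooth muscle genes Tagln and Myh11, and 16 had a log2 fold change above 0 with a median of 2.29. Tagln had means of 11.5 CPM (Cre-negative) and 145 CPM (Dnmt1cKO; 3.65 ± 0.77 on the log2 scale, edgeR adjusted p = 0.0129), and Myh11 averaged 54.7 and 386 CPM (2.82 ± 0.64, adjusted p = 0.0242). DESeq2 called 5 of the 17 and limma-voom 0, with limma-voom adjusted p of 0.231 for Tagln and 0.102 for Myh11. Without Dnmt1cKO 4 the adjusted p in edgeR was 0.131 for Tagln, and for Myh11 it lay between 0.0529 and 0.115 without any 1 of Cre-negative 1, 3, 6 and 7 and Dnmt1cKO 3 and 4. The same list had 0 calls in Control against Cre-negative, with 12 of 17 at an unadjusted p under 0.05 and a median of 2.71. With the stromal mean as a covariate, the 9 hemidesmosome and laminin genes again had 0 calls, and so they had without the 3 libraries of the highest stromal mean, an alternative added after the data had been seen.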

How the data were processed

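Polyadenylated RNA was fragmented and primed with random hexamers, per the labels' protocols, and libraries were amplified by PCR with no molecular identifiers described. Tools listed by the submitters' processing notes are RSEM 1.2.3, Bowtie 0.12.9 and bcl2fastq 2.17.1.14, with genome build mm10. The gene annotation is not given in the sources used here. The deposited table holds unscaled RSEM expected counts per gene symbol, which were rounded to whole numbers here. Nothing in the labels describes the lysates of a group as independent beyond their pooling, so a p-value here reflects the spread among pooled lysates. The 95% intervals of fold changes come from the edgeR fit and include that spread, while floors (3 counts) cover counting error only.

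Genes were filtered with filterByExpr, scaled by TMM and tested in edgeR 4.0.16 (R 4.3.3) by its quasi-likelihood test, all 14 libraries entering 1 fit, with a Benjamini-Hochberg threshold of 0.05. Ratios and levels relative to epithelial markers used log2(CPM + 0.5) and two-sided exact permutation tests over libraries. Both procedures were tested on simulated data. DESeq2 1.42.0, limma-voom (limma 3.58.1), other scalings, filters, covariates and left-out libraries were alternatives. Positions came from GENCODE M21, and shared sequence was searched with BLAST+ 2.17.0 at 95% identity over at least 100 bases.

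The genes and lists were chosen with earlier results of these data known. Named genes were the 9 described, Dnmt1 and Shh, the up to 4 smallest p per list in Dnmt1cKO against Cre-negative, of which those a result turns on are printed, partner chains, and the 5 nearest by profile with a mean of at least 5 CPM; 2 genes that this rule takes in are not reported here. No 2 libraries held the same counts: at least 82.3% of genes differed in each of 91 pairs.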

Additional observations from a re-analysis of the deposited data

Results flagged for a closer look

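Single libraries stood far from the rest of their group in 11 of 50 sets of values examined, where the gap to the nearest library exceeded Dixon's 95% limit for that group's whole range. Chance flags about 1 in 20 such groups, and the 11 are not independent, because ratios and relative levels reuse the same gene values.

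In Cre-negative 2, log2(CPM + 0.5) was 1.53 for Itga6 and 0.61 for Lama3. The same library therefore stood apart in the log2 ratios of Itga3 to Itga6 (3.71), Lama3 to Lamb3 (-5.36) and Lama5 to Lama3 (5.57). Relative to the pan-epithelial markers, Itga6 was at -7.53 and Lama3 at -8.45 there. Cre-negative 2 had 3111972 counts, the fewest of the 7 Cre-negative libraries, and the lowest stromal marker sum of the 14, 172 CPM. Its Lamb3 level, 62.1 CPM, was within the range of the other Cre-negative libraries.

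In Cre-negative 3, log2(CPM + 0.5) of Itgb4 was 0.027, the log2 ratio of Dst to Itgb4 was 5.11, and Itgb4 relative to the pan-epithelial markers was -8.71. This library had 5972976 counts, of which 3 were Itgb4.

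In Dnmt1cKO 4, log2(CPM + 0.5) of Itga3 was 2.91, where the other 4 Dnmt1cKO libraries had 99.6 to 167 CPM. The library had 4671072 counts, of which 29 were Itga3, and its stromal marker sum was 7360 CPM.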

How the results depend on the processing

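The count of the 9 genes called remained 0 in each comparison under all alternatives run, and the lowest adjusted p of any of them was 0.256 against Cre-negative, 0.416 in Dnmt1cKO against Control and 0.551 in Control against Cre-negative. The ratio and relative tests likewise had 0 adjusted calls under each alternative. Of 711 recomputed fold changes of the 9 genes over the 3 comparisons, 659 kept their sign and 52 changed it, 21 of them in Dnmt1cKO against Cre-negative, 13 in Dnmt1cKO against Control and 18 in Control against Cre-negative. Ratio and relative values were counted in Dnmt1cKO against Cre-negative only, where 8 of 119 ratio values and 7 of 162 relative values changed sign. Of 27 levels per kb 7 moved by more than 1 SD.

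The number of all genes called moved more. In Dnmt1cKO against Cre-negative it was 143, and 565 with DESeq2, 454 with limma-voom, 249 with no filter, 95 with a stricter filter (at least 5 CPM in 5 libraries), 86 with only the groups compared, 79 with the stromal mean as a covariate, 73 with the pan-epithelial mean and 93 to 238 with 1 library left out. In Dnmt1cKO against Control it was 23, and 121 with DESeq2, 232 with limma-voom and 6 to 37 with 1 library left out. In Control against Cre-negative it was 7, and 31 with DESeq2, 40 with limma-voom, 25 with no filter, 4 with the stromal mean, 1 without the 3 highest stromal means and 2 to 11 with 1 library left out.

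Same-numbered libraries of different groups correlated between -0.193 and 0.113 in their deviations from the group means, over 0.1 in 2 of 9 pairs. Differently numbered pairs ran from -0.148 to 0.189. With 2 Control libraries, the deviations of 1 are the mirror image of those of the other. These correlations therefore cannot decide whether replicate numbers pair the libraries. With the replicate number as a block, the replicate block fit called 75 genes in Dnmt1cKO against Cre-negative and 19 in Control against Cre-negative, the Itga6 fold change was -0.24 and that of Lamb3 -0.00084.

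Other sign changes in Dnmt1cKO against Cre-negative follow, and the cause of each was not tested. With limma-voom the log2 fold change was -0.46 for Itga6, -0.27 for Itga3, -0.63 for Col17a1 and -0.057 for Lama5. With the stromal mean as a covariate it was -0.12 for Itga6, -0.036 for Lama5 and -0.47 for Col4a2, and with the pan-epithelial mean -0.027 for Lama5. Without the 3 lowest totals it was -0.069 for Itga6, -0.21 for Itga3 and -0.086 for Lamb3. Without the 3 highest stromal means, an alternative added after the data were seen, Lama3 was at 0.10, the Itga3 to Itga6 ratio at -0.37 and Col17a1 relative to epithelium at -0.51. Relative Col17a1 was -0.11 with a pseudocount of 0.1 CPM, and the Itga3 to Itga6 ratio was -0.016 with 2 CPM. With 1 library left out, the fold change ran from -0.14 to 0.59 for Itga6, -0.012 to 0.56 for Itga3, -0.037 to 1.28 for Col17a1, -0.21 to 2.09 for Col7a1 and -0.16 to 0.37 for Lama5, and that of Col7a1 against Control from -2.63 to 0.30. The Itga3 to Itga6 ratio then ran from -1.36 to 1.13, relative Itga6 from -0.29 to 1.46 and relative Col17a1 from -0.68 to 0.94.

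Per kb of the longest coding transcript, the levels that moved were those of Itga6 (21.8, 14.8 and 25.7 in Cre-negative, Control and Dnmt1cKO), Dst (5.14, 5.85 and 7.52) and, in Cre-negative, Lamb3 (9.82). Depth limits Lama3, Col17a1 and Col7a1 most, where 3 counts equal 0.207 to 1.30 CPM by library.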
